A study of Rattus norvegicus with 72 samples.

Results

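The comparison set the effect of aflatoxin B1 (AFB) beside the effect of NNK in primary rat hepatocytes after 72 h of exposure, and asked which changes were shared by the 2 genotoxic compounds and which differed between them. It used 12 of the 72 arrays of the series, those of 4 groups with 3 arrays each, and 18048 of the 31042 probe sets that are not controls of the array passed the filter on dim signals. The quantity tested for each probe set was the difference of effects, (AFB_72h minus its control) minus (NNK_72h minus its control), on a log2 scale on which 1 is a 2-fold change. A positive difference means that AFB raised the signal more, or lowered it less, than NNK.

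Aflatoxin B1 is a mould toxin, and NNK, or 4-(methylnitrosamino)-1-(3-pyridyl)-1-butanone, is a nitrosamine of tobacco smoke. Both need liver cytochrome P450 enzymes to turn them into products that bind to DNA. The activated aflatoxin leaves bulky adducts on guanine, and NNK gives methylated and pyridyloxobutylated bases. Such damage stabilises the transcription factor p53, which turns on genes of cell cycle arrest, of its own feedback control and of cell death, and bulky adducts also block RNA polymerase along the transcribed strand.

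The AFB_72h group received 19 nM of the compound, and its controls, C(WYE_CND_AFB)_72h, were shared with 2 other compounds of the series. The NNK_72h group received 625 µM and had controls of its own, C(NNK)_72h, so the effects of AFB and NNK have no array in common. The doses differ, and each value below belongs to these doses. All cells were freshly isolated hepatocytes grown as a monolayer in serum-free medium with hydrocortisone and insulin from a few hours after plating, and exposure began on the day after plating. According to the protocol, 3 separate experiments were done per compound. No label names the animal, its strain or its sex for a 72 h sample, and what the D number in the titles stands for is not explained.

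The 2 sets of arrays were not of equal quality. The variance between arrays of a group averaged 0.392 in AFB_72h and 0.356 in its controls, against 0.131 in NNK_72h and 0.135 in its controls (log2 scale). The log2 ratio of 3′ over 5′ beta-actin signal, which is higher in degraded RNA, was 0.629, 2.01 and 2.49 in AFB_72h and 0.496, 0.738 and 2.01 in its controls, while the 6 arrays of the NNK comparison lay between 0.401 and 0.801. A score of culture time, scaled so that the other control groups of the series average 0 at 24 h and 1 at 72 h, was 0.672, 0.542 and -0.094 in AFB_72h and 0.822, 0.29 and -0.131 in its controls. It was 0.89, 1.17 and 0.94 in NNK_72h and 0.968, 1.21 and 1.04 in its controls, which were among the arrays that set the scale. Replicate 3 of AFB_72h and of its controls thus scored like a 24 h culture, while the replicate 3 arrays labelled 24 h scored 0.511 and 0.604, so the time labels of these arrays (D number 3) are not settled. Counts of calls that moved by over 1.5 times without these arrays are given both ways.

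**Figure D1:**
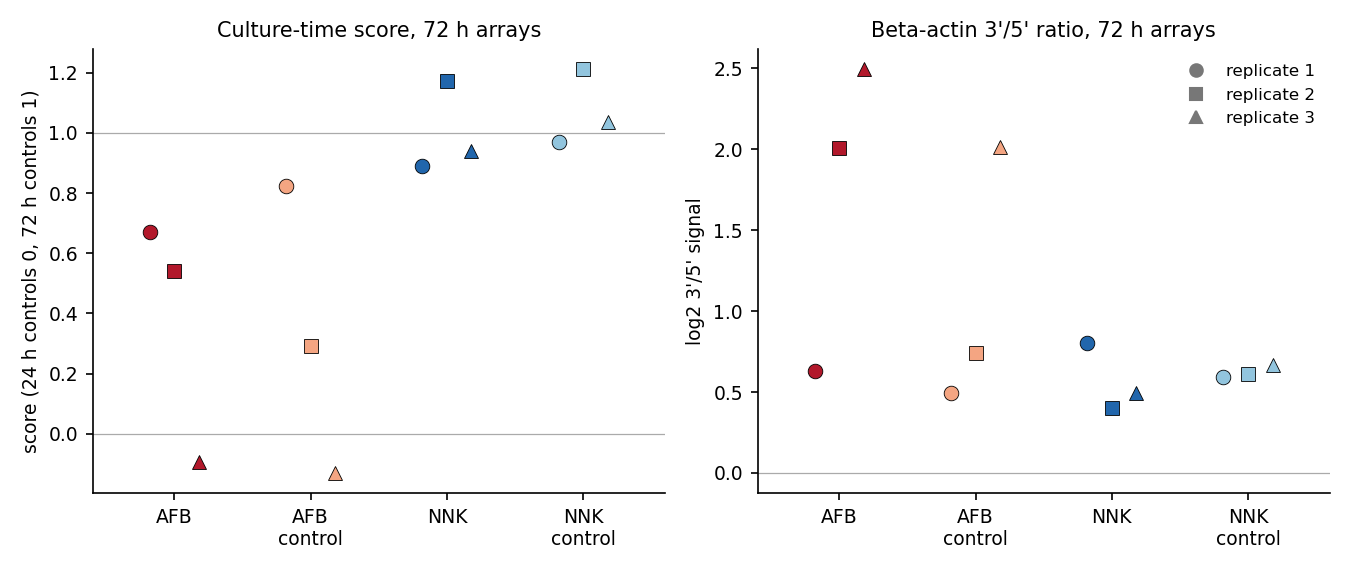
Culture-time score (left, unitless) and log2 ratio of 3′ over 5′ beta-actin signal (right) of the 12 arrays at 72 h, 1 point per array, with marker shape for the replicate. Replicate 3 of AFB and of its controls lies near a score of 0, and 3 of the 6 arrays of the AFB comparison have an actin ratio of 2.01 or more.

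The hepatocyte markers were present in every group: 32 of 38 listed hepatocyte genes passed the filter and none was at the floor on all 3 arrays of a group. Their summed intensity was 100700, 53720 and 87710 in AFB_72h and 80680 to 98480 in its controls, and 72150 to 83600 in NNK_72h and 64270 to 99830 in its controls. Replicate 2 of AFB_72h thus stood apart with a low sum. With AFB 24 of the 32 lay below control (median effect -0.29), where 8841 of 18048 probe sets did. Of the 32, 2 rose and 0 fell with AFB (2.78% and 2.13% of all probe sets). With NNK 19 lay below control (9354 of 18048 probe sets did), and 1 rose and 0 fell (1.67% and 1.65%). Without D number 3, 2 rose and 5 fell with AFB (6.18% and 6.67%), and 2 rose and 1 fell with NNK (3.65% and 3.73%). The summed intensity of 17 macrophage markers was 2577 to 3196 in AFB_72h and 1507 to 2334 in its controls, and 1689 to 3470 in NNK_72h and 1721 to 3529 in its controls. None of the 17 passed the test with either compound (0 calls by limma; 5 had an unadjusted p under 0.05 with AFB and 0 with NNK; 3 rose with AFB without D number 3), and their median effect was 1.02 with AFB and 0.08 with NNK, beside 0.03 and 0.02 over all 10178 genes. In 7 of the 17 the 3 AFB effects taken by equal replicate number all lay above the 3 NNK effects, a pattern that 7.25% of all probe sets showed. The stellate cell and fibroblast markers summed to 605 to 1365 in AFB_72h against 312 to 774 in its controls, and to 562 to 2420 in NNK_72h against 564 to 1740 in its controls. The part of these other cells, and of the low array, in the results below was not tested, and in such bulk samples fewer cells of a type and less RNA per cell cannot be told apart.

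AFB changed 886 probe sets at 72 h (502 rises and 384 falls, 4.91% of those tested) and NNK changed 600 (302 rises and 298 falls, 3.32%), by limma at a Benjamini-Hochberg adjusted p under 0.05. With the replicate number as a block, which the deviations of the NNK arrays bear out as a pairing, NNK changed 1296. Without the D number 3 arrays, NNK changed 1331, and AFB changed 2318. The NNK estimates are the same in that fit, and the spread, which all groups share, is not. Other settings gave fewer calls. AFB calls were 276 without AFB_72h replicate 2, NNK calls 220 without C(NNK)_72h replicate 3 and shared calls 134 without NNK_72h replicate 1. With the 12 arrays alone AFB had 213 calls, NNK 36 and both 27. In the fit of all arrays both compounds changed 274 probe sets (1.52% of those tested), which is 30.9% of the AFB calls and 45.7% of the NNK calls. All 274 moved the same way, 170 up (0.942%) and 104 down (0.576%), and 0 moved in opposite directions.

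The difference of effects itself passed the test for 0 probe sets (0% of 18048). The smallest adjusted p was 0.0605, for Slc39a11, and 1040 probe sets (5.76%) had an unadjusted p under 0.05, 578 with the higher effect in AFB and 462 with the lower. The median 95% interval, which is not adjusted for the number of probe sets, reached 0.759 to either side of a difference. It is not the limit of what the test could find. With the adjustment over 18048 probe sets, larger differences also went uncalled, among them several given below. A missed threshold therefore does not show that the compounds acted alike.

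A call with 1 compound alone was thus in no case a called difference. Of the 612 probe sets called with AFB alone, 557 (91.0%) had an effect of the same sign with NNK, and of the 326 called with NNK alone 289 (88.7%) had the same sign with AFB, beside 65.7% over all probe sets. Where AFB alone was called to rise, the median effect was 0.97 with AFB and 0.43 with NNK, and where it alone was called to fall, -1.06 and -0.50. Of the genes named by the rule or given below with array values or SEs, 36 of 50 AFB calls and 19 of 33 NNK calls kept their call with each array of the comparison left out in turn. Genes named only within the count of a list were not run this way. Those lost at least once were the AFB calls of Acss2, Aldh1l2, Car5a, Cd209f, Cmas, Cyp17a1, Cyp2e1, Krt8, Krt18, Mgmt, Myc, Scd, Slc22a23 and Thrsp, and the NNK calls of Acss2, Aen, Akr1c1, Aldh1l2, Car5a, Cd209f, Clybl, Cyp17a1, Lrmda, Nupr1, Scd, Slc39a11, Thrsp and Tyms. Across all 18048 probe sets the effects of AFB and NNK had a Pearson correlation of 0.584, given as a description because probe sets of the same arrays are not independent. At 24 h it was 0.382.

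**Figure D2:**
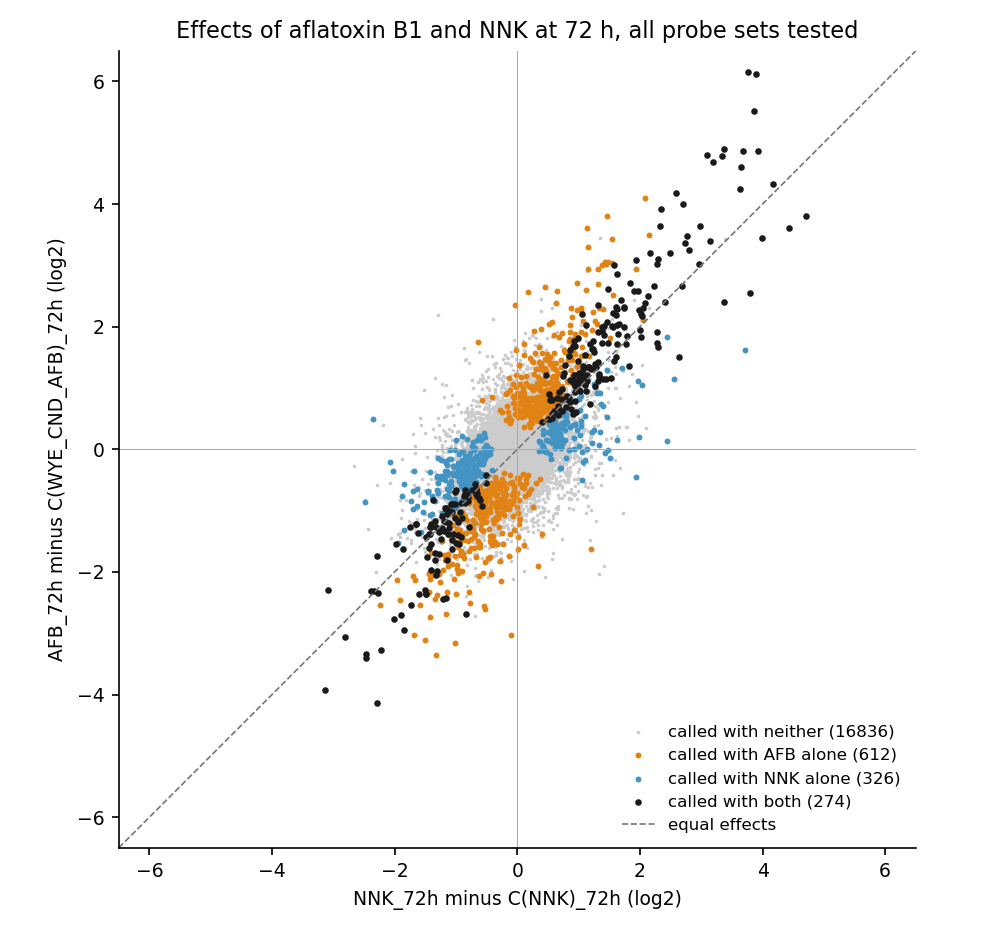
Effect of AFB (vertical) against effect of NNK (horizontal), both log2 at 72 h, 1 point per probe set tested. The 274 probe sets called with both compounds lie where both effects are positive or both are negative, 0 elsewhere, and the rises lie more often above the dashed line of equal effects (129 of 170).

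The shared rises had a median effect of 1.66 with AFB and 1.32 with NNK, and the AFB effect was the larger in 129 of 170 (75.9%, beside 52.7% of all probe sets). The shared falls had medians of -1.27 with AFB and -1.17 with NNK, and AFB was the stronger in 58 of 104. On the 24 h arrays, which enter these calls only through the spread shared by all groups, 162 of the 170 shared rises were above control with both compounds (26.8% of all probe sets) and 104 of 104 shared falls were below it with both (30.3%). D numbers are shared between the 24 h and 72 h arrays, among them D number 3, whose labelled times are in doubt. With 2-nitrofluorene, the other compound that the design text names as genotoxic, 146 probe sets were called in all at 72 h (0.809%). Of the 170 shared rises 0 rose (0.698% of all probe sets did) and 0 fell (0.111%). Of the 104 shared falls 1 fell and 1 rose.

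Genes of the p53 response made up the most familiar shared group. Of 48 listed genes 33 were measured, of which 16 rose and 0 fell with AFB (2.78% of all probe sets rose), 12 rose and 0 fell with NNK (1.67%), and 11 rose with both (without D number 3, 17 rose and 1 fell with AFB and 17 rose with NNK, where 6.18% and 3.65% of all probe sets rose). Their median effect was 0.72 with AFB and 0.54 with NNK, and the difference was called for 0 of 33 (median 0.14; 3 had an unadjusted p under 0.05). Those that rose with both were Cdkn1a, Mdm2, Ccng1, Phlda3, Gdf15, Aen, Bbc3, Plk2, Sesn2, Perp and Bcl2l1. A second Sesn2 probe set was called with NNK alone (0.93 with AFB and 1.30 with NNK), and a second Bcl2l1 probe set with neither (0.19 and 1.19).

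Promoter windows are shown for 3 of them, Cdkn1a, Ccng1 and Aen, because these hold a p53 half-site, the decamer to which a p53 dimer binds. The windows run from 250 bases before to 50 after the gene start (RefSeq, build GRCr8, 5′ to 3′ on the strand of the gene), and capitals mark the half-site.
Cdkn1a (chr20:7150682-7150981, plus strand): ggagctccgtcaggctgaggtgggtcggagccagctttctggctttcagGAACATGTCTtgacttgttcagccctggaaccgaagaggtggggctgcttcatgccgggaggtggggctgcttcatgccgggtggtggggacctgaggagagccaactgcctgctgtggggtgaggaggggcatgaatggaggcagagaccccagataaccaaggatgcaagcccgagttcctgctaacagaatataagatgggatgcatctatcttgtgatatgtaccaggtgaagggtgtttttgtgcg
Ccng1 (chr10:25684827-25685126, minus strand): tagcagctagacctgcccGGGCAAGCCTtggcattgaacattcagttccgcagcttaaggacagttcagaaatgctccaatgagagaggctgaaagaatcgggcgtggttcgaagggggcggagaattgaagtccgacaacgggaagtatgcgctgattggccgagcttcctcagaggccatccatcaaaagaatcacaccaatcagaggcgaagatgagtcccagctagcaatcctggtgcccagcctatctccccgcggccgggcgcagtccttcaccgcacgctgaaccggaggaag
Aen (chr1:142224283-142224582, plus strand): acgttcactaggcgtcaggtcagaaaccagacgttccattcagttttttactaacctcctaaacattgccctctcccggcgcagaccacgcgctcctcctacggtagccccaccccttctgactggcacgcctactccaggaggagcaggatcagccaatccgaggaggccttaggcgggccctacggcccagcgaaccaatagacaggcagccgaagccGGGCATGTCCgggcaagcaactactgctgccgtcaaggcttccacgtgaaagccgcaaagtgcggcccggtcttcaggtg

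The half-site begins 201 bases before the gene start in Cdkn1a, 232 in Ccng1 and 30 in Aen. Searched on both strands, it stood in 14 of 106 windows of shared rises (13.2%), 6 of 58 of shared falls (10.3%), 7 of 29 of the p53 list (24.1%) and 553 of 8565 of all measured genes (6.46%). The windows of Mdm2, Phlda3, Gdf15, Plk2, Sesn2, Perp and Bcl2l1, which also rose with both compounds, held none. Gadd45a and Sesn1 held it and were called with neither compound. A match is a description of these letters, and windows of 300 bases leave out more distant sites.

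Cdkn1a encodes p21, the inhibitor of cyclin-dependent kinases that carries out p53 arrest. Its intensity was 3047, 2823 and 2226 in AFB_72h, against 972, 1076 and 1086 in its controls. It was 3158, 2267 and 1933 in NNK_72h, against 942, 706 and 478 in its controls. Treated and control arrays did not overlap in either comparison. The AFB effect was 1.36 ± 0.21 (SE) and the NNK effect 1.81 ± 0.21 (limma adjusted p 8.26e-06 and 1.05e-07), and their difference was -0.46 with a 95% interval of -1.05 to 0.14. The 3 AFB effects by replicate number all lay below the 3 NNK effects, which 5.45% of probe sets also showed, and the second Cdkn1a probe set gave 1.74 with AFB and 2.27 with NNK.

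Mdm2, the ubiquitin ligase that degrades p53 in a feedback loop, had intensities of 1239, 1029 and 442 in AFB_72h and 244, 185 and 135 in its controls. In NNK_72h they were 1248, 1528 and 876, and in its controls 260, 377 and 249. The effects were 2.18 ± 0.30 with AFB and 2.03 ± 0.30 with NNK, with a difference of 0.14 (-0.71 to 1.00). Replicate 3 of AFB was the lowest treated array, still above every control.

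Ccng1, cyclin G, a p53 target of the same feedback loop, had intensities of 3411, 2449 and 1619 in AFB_72h and 1141, 745 and 584 in its controls, and 2939, 2878 and 2022 in NNK_72h and 992, 1290 and 1009 in its controls. Its effects were 1.59 ± 0.24 and 1.24 ± 0.24 (difference 0.35, from -0.32 to 1.02). Gdf15, a secreted stress hormone, was brighter overall in the AFB set, with 443, 797 and 228 in AFB_72h and 55.2, 98.7 and 57.8 in its controls, and 206, 237 and 177 in NNK_72h and 37.9, 41.9 and 20.3 in its controls. Its effects of 2.67 ± 0.46 with AFB and 2.69 ± 0.46 with NNK gave a difference of -0.02, with a wide interval of -1.33 to 1.28.

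The difference was positive in 23 of the 33 measured p53 genes, and none passed the test of the difference. Phlda3, an inhibitor of the kinase Akt, had effects of 2.00 ± 0.23 with AFB and 1.41 ± 0.23 with NNK, and the difference of 0.60 had an interval of -0.06 to 1.25. Its mean log2 intensity was 10.22 in AFB_72h and 10.34 in NNK_72h, and 8.21 and 8.94 in their controls. Aen, an apoptosis-enhancing nuclease, measured 475, 458 and 453 in AFB_72h against 146, 92.8 and 220 in its controls, and 432, 427 and 370 in NNK_72h against 236, 211 and 203 in its controls. The treated levels were close to each other, and the AFB controls were the dimmer in 2 of 3 arrays. The effects were 1.68 ± 0.25 and 0.92 ± 0.25, with a difference of 0.77 (0.07 to 1.46, adjusted p 0.833).

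Zmat3, a zinc finger protein that binds RNA, and Pidd1, the scaffold of the PIDDosome, were called with AFB (1.40 ± 0.22 and 1.66 ± 0.28) and not with NNK (0.53 ± 0.22 and 0.87 ± 0.28). Their differences were 0.86 (0.23 to 1.5, adjusted p 0.705) and 0.79 (-0.02 to 1.60, adjusted p 0.869), so the missing NNK call is not a shown difference. Fas, Ei24 and Sertad1 were likewise called with AFB only, and Mdm4, a partner of Mdm2, with NNK only. Second probe sets differed from this, with Fas called with neither (0.29 with AFB and -0.15 with NNK) and Mdm4 with both (1.23 and 1.02). With the replicate block Pidd1 was also called with NNK (adjusted p 0.0104).

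**Figure D3:**
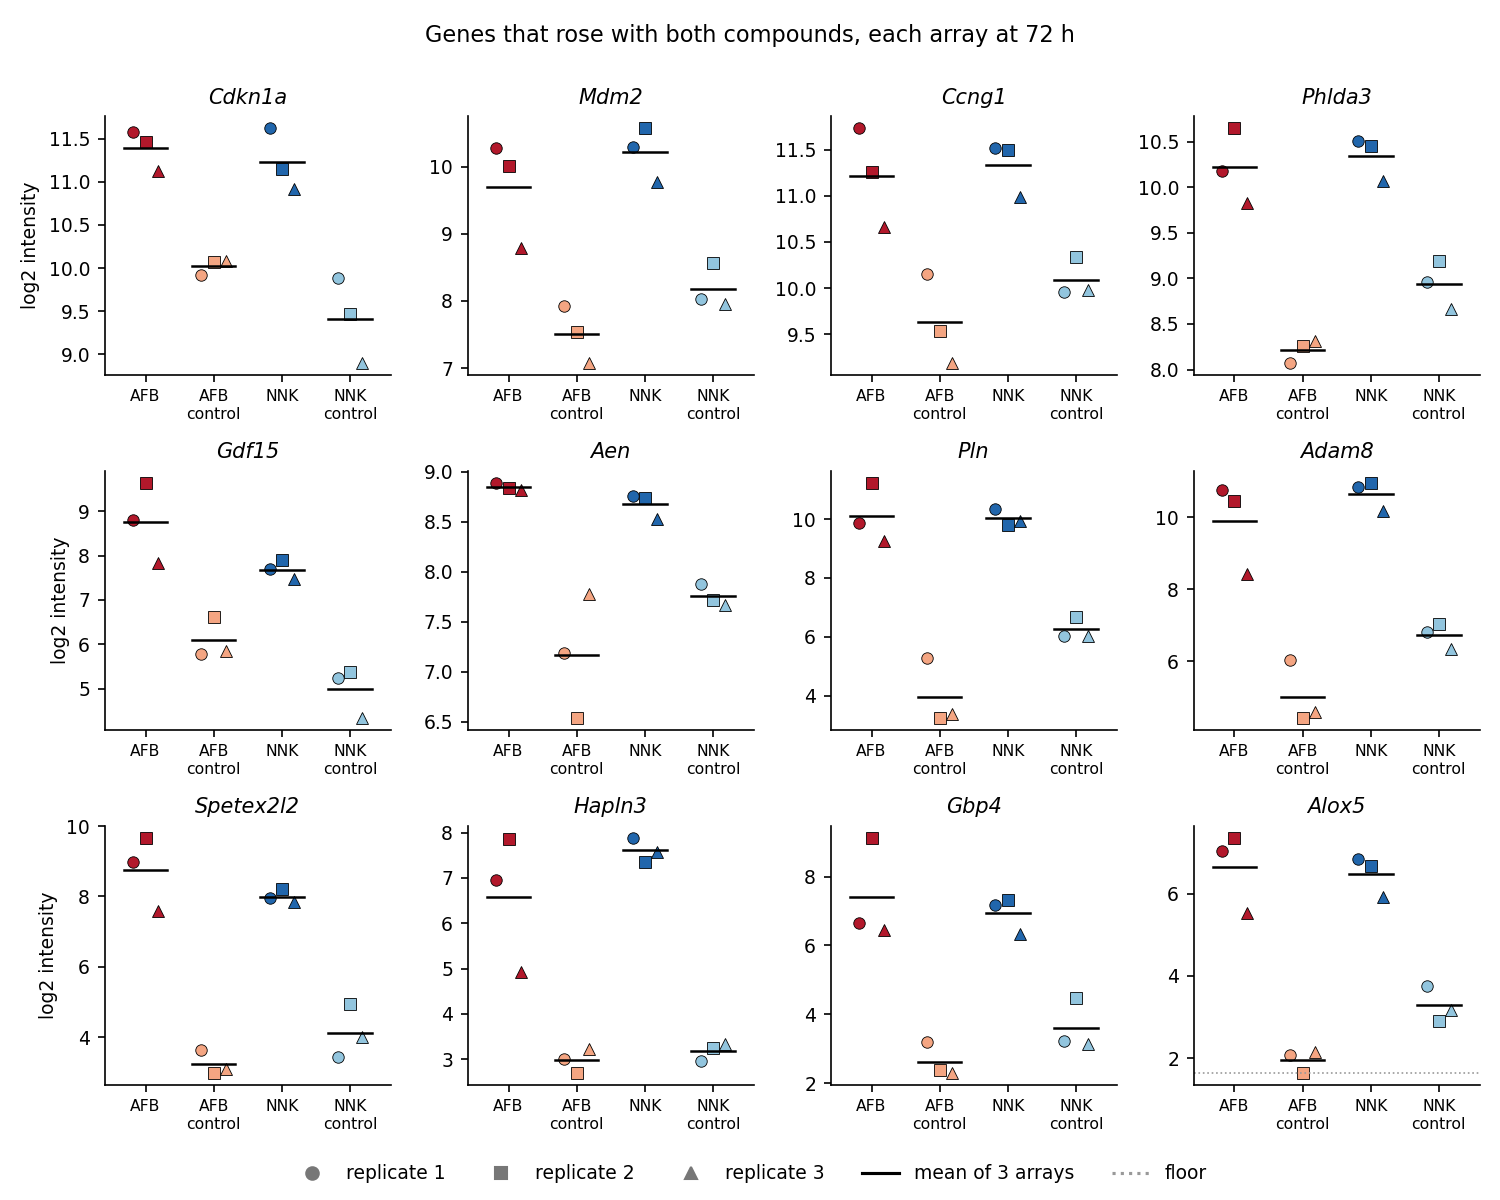
Log2 intensity of 12 genes that rose with both compounds, 1 point per array (marker shape for the replicate), bars for the mean of 3 arrays, with each compound left of its controls. In all 12 genes shown the treated arrays lie above all arrays of their own controls, and replicate 3 is the lowest AFB array.

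Of 39 measured DNA repair genes 5 rose with AFB (Mgmt, Rpa1, Xrcc1, Rev3l and Msh6, where 2.78% of all probe sets rose), 1 rose with NNK (Polb, where 1.67% rose), 0 fell, and 0 were called with both. A second Polb probe set was called with neither. The counts without D number 3 were 5 rises and 3 falls with AFB and 2 rises with NNK. Mgmt, the enzyme that removes methyl groups from guanine, had 1559, 1872 and 1584 in AFB_72h against 639, 380 and 810 in its controls, and 1341, 1612 and 1128 in NNK_72h against 784, 729 and 712 in its controls. All treated arrays lay above their own controls with both compounds. The effect was 1.52 ± 0.43 with AFB (adjusted p 0.0243) and 0.86 ± 0.43 with NNK (adjusted p 0.321), and the difference of 0.66 had an interval of -0.56 to 1.88. Xrcc1, the scaffold of single-strand break repair, had 1.07 ± 0.17 with AFB and 0.55 ± 0.17 with NNK (adjusted p 0.0529, and 0.0182 with the replicate block), a difference of 0.52 (0.05 to 1.00, adjusted p 0.833).

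Several of the largest shared rises were of genes that were dim in control cells. By the rule for naming they were Adam8 (a membrane metalloprotease), Spetex2l2, Pln (phospholamban, the regulator of the calcium pump of the sarcoplasmic reticulum), Pinlyp (an inhibitor of phospholipase A), Hapln3 (a link protein of hyaluronan), Cib2 (a calcium-binding protein), Gbp4 (a guanylate-binding protein), Alox5 (arachidonate lipoxygenase), Inka2 and Pglyrp1 (a peptidoglycan recognition protein). In 9 of the 10 the AFB effect was numerically the larger, and in Hapln3 the NNK effect. The 6 of these genes that an earlier look at these arrays had already picked out as raised are described here and support nothing.

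Pln had intensities of 928, 2410 and 605 in AFB_72h and 39.1, 9.45 and 10.3 in its controls, and 1291, 887 and 979 in NNK_72h and 65.9, 103 and 64.9 in its controls. Treated levels were of the same order with both compounds, and the controls of AFB were all dimmer than those of NNK. The effects were 6.15 ± 0.78 with AFB and 3.77 ± 0.78 with NNK, and the difference of 2.38 had an interval of 0.18 to 4.58 (adjusted p 0.833). Without D number 3 it was 2.51 (adjusted p 0.271).

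Spetex2l2 measured 507, 813 and 192 in AFB_72h against 12.5, 7.88 and 8.46 in its controls, and 248, 294 and 227 in NNK_72h against 10.9, 30.5 and 16 in its controls. Effects of 5.51 ± 0.52 and 3.86 ± 0.52 differed by 1.65 (0.16 to 3.13). Gbp4 had effects of 4.78 ± 0.44 with AFB and 3.33 ± 0.44 with NNK, a difference of 1.45 (0.19 to 2.71), and Alox5 had 4.68 ± 0.48 and 3.19 ± 0.48, a difference of 1.49 (0.13 to 2.85). None of these differences passed the adjusted threshold, and replicate 3 was the dimmest AFB array in each.

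Hapln3 was the exception in direction, with 125, 234 and 30.3 in AFB_72h against 8.04, 6.46 and 9.27 in its controls, and 237, 163 and 192 in NNK_72h against 7.74, 9.45 and 10.0 in its controls. The controls of both sets were alike and replicate 3 of AFB stood apart with a low value. The difference was -0.82 (-2.46 to 0.82), and it was 0.13 without D number 3. Adam8 had effects of 4.86 ± 0.69 and 3.92 ± 0.69, Cib2 of 4.89 ± 0.56 and 3.36 ± 0.56, and Pinlyp of 4.86 ± 0.59 and 3.67 ± 0.59, AFB first in each.

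Among 24 measured genes of the interferon response 5 rose with each compound (2.78% of all probe sets with AFB and 1.67% with NNK) and 4 with both (0.942%), namely Irf7, Gbp2, Gbp4 and Cxcl10, and 1 fell with AFB (Ifit2, whose second probe set was called with neither). Their median effect was 0.06 with AFB and 0.12 with NNK, near that of all genes. When D number 3 was left out, 8 rose with AFB and 5 with NNK (6.18% and 3.65% of all probe sets).

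The shared falls named by the rule were Fhit (a diadenosine triphosphate hydrolase), Sugct (a mitochondrial CoA transferase), Pik3c2g (a lipid kinase), Cd209f (a lectin), Cyp17a1 (a steroid hydroxylase), Lrmda, Thrsp (a protein of fatty acid synthesis control), Clybl (a mitochondrial lyase), Car5a (a mitochondrial carbonic anhydrase) and Wwox (an oxidoreductase with WW domains). Fhit and Wwox span the best known common fragile sites of the human genome, long stretches that break when replication is disturbed. Of 18 genes at fragile sites or with long transcripts that earlier results had shown to be lowered, 10 were measured; 9 fell with AFB (2.13% of all probe sets fell), 6 with NNK (1.65%) and 6 with both. The list was picked from these arrays, so its direction is no independent evidence.

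Fhit stayed below an intensity of 10 in 5 of 6 treated arrays. Its intensity was 4.35, 6.36 and 7.32 in AFB_72h against 88.0, 92.9 and 87.5 in its controls, and 2.19, 6.47 and 36.9 in NNK_72h against 81.0, 67.1 and 92.7 in its controls. Replicate 3 of NNK kept more signal than the others, still below every control. The effects were -3.93 ± 0.47 with AFB and -3.13 ± 0.47 with NNK, and the difference was -0.79 (-2.12 to 0.53).

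In other falls, too, replicate 3 was the highest NNK array. Wwox measured 1.02, 5.10 and 10.1 in AFB_72h against 56.7, 36.0 and 36.1 in its controls, and 6.55, 7.39 and 24.7 in NNK_72h against 29.9, 36.7 and 50.4 in its controls. Its effects were -2.95 ± 0.36 and -1.84 ± 0.36, with a difference of -1.10 (-2.13 to -0.08, adjusted p 0.833), while a second Wwox probe set gave -0.01 with AFB and -0.40 with NNK. Sugct had effects of -3.40 ± 0.41 with AFB and -2.47 ± 0.41 with NNK, and Pik3c2g of -3.34 ± 0.48 and -2.47 ± 0.48. For Lrmda (-4.14 and -2.29) and Clybl (-3.27 and -2.22) all 3 AFB arrays were at or under the floor of 3.117, so the AFB fall is a lower bound on its size.

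Within that list 3 genes were called with AFB alone. Cmss1, Immp2l (a mitochondrial inner membrane peptidase) and Macrod1 (an ADP-ribose hydrolase) fell with AFB and were not called with NNK, and none of their differences passed the test in the fit of all arrays. Immp2l measured 11.6, 13.8 and 11.3 in AFB_72h against 85.8, 55.7 and 76.9 in its controls, and 28.9, 17.8 and 62.1 in NNK_72h against 36.6, 60.9 and 45.0 in its controls. The AFB arrays of Immp2l were all far below their controls, and the NNK arrays overlapped theirs. Macrod1 measured 31.0, 1.62 and 81.3 in AFB_72h against 178, 258 and 180 in its controls, and 33.0, 30.9 and 46.0 in NNK_72h against 105, 68.9 and 103 in its controls. Cmss1 measured 15.6, 0.569 and 15.7 in AFB_72h against 72.6, 80.7 and 93.0 in its controls, and 39.6, 16.7 and 44.1 in NNK_72h against 60.9, 48.6 and 82.3 in its controls. In Macrod1 and Cmss1 the NNK arrays, too, all lay below their controls. The difference was -2.00 (-3.17 to -0.83, adjusted p 0.410) for Immp2l and -2.14 (-3.28 to -1.0, adjusted p 0.305) for Cmss1, and without D number 3 it was -1.90 (adjusted p 0.0754) and -2.44 (adjusted p 0.0720). For Macrod1 it was -2.02 (-3.45 to -0.59, adjusted p 0.693), and -3.12 without D number 3 (adjusted p 0.0104).

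Many genes of serine synthesis and one-carbon metabolism fell with AFB. This pathway makes serine from a glycolytic intermediate and carries its carbon on folate to nucleotide synthesis. Of 22 measured members 10 fell and 1 rose with AFB (2.13% of all probe sets fell and 2.78% rose), 1 fell and 1 rose with NNK (1.65% and 1.67%), and the median effect was -0.79 with AFB and -0.31 with NNK (0.03 and 0.02 over all genes). Those that fell with AFB were Phgdh, Psat1, Shmt2, Mthfd1l, Mthfd2, Amt, Gnmt, Bhmt, Cbs and Aldh1l2, and Aldh1l2 also fell with NNK. In all of these but Mthfd1l and Mthfd2, AFB_72h replicate 2, with the low hepatocyte marker sum, was the lowest AFB array. Bhmt measured 2098, 39.7 and 948 in AFB_72h against 4502, 5997 and 1582 in its controls. With replicate 2 left out, the AFB calls of Phgdh and Psat1 were kept and that of Aldh1l2 was lost. The others were not run this way. Without D number 3, 14 fell with AFB and 3 with NNK (6.67% and 3.73% of all probe sets). All but 1 of the 22 had the same sign with both compounds, and the difference was called for 0 in the fit of all arrays and for 1, Phgdh, without D number 3.

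Phgdh, the first enzyme of serine synthesis, measured 112, 61.8 and 220 in AFB_72h against 474, 584 and 697 in its controls. It measured 326, 258 and 522 in NNK_72h against 621, 680 and 535 in its controls. Both treated groups lay below their controls, by a wider gap with AFB. The effect was -2.33 ± 0.28 with AFB and -0.79 ± 0.28 with NNK (adjusted p 5.23e-08 and 0.119). The replicate block gave the NNK effect an adjusted p of 0.0432. The difference was -1.54 (-2.34 to -0.74, adjusted p 0.305), and -1.87 without D number 3 (adjusted p 0.0258).

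Psat1, the second enzyme of the pathway, measured 122, 91.6 and 183 in AFB_72h against 762, 952 and 761 in its controls, and 168, 113 and 446 in NNK_72h against 421, 491 and 452 in its controls. Replicate 3 of NNK lay within the range of its controls, and the other two lay far below. Effects of -2.69 ± 0.36 with AFB and -1.16 ± 0.36 with NNK differed by -1.54 (-2.57 to -0.50, adjusted p 0.627), and by -1.85 without D number 3 (adjusted p 0.123). With the replicate block Psat1 was called with NNK (adjusted p 0.0152). At 24 h the difference was -2.15 for Psat1 and -1.65 for Phgdh (adjusted p 0.203 for each).

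Aldh1l2, a mitochondrial folate dehydrogenase, had effects of -1.38 ± 0.31 with AFB and -1.44 ± 0.31 with NNK (difference 0.06, -0.81 to 0.93). Tyms, thymidylate synthase, went the other way. It had 156, 174 and 82.9 in AFB_72h against 39.4, 25.2 and 23.0 in its controls, and 131, 147 and 95.8 in NNK_72h against 54.6, 70.5 and 53.2 in its controls, with treated arrays above all controls in both. Its effects were 2.21 ± 0.26 with AFB and 1.06 ± 0.26 with NNK (difference 1.15, 0.40 to 1.90, adjusted p 0.581).

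Serine synthesis shares the transcription factor ATF4 with the wider stress response to amino acid shortage and unfolded protein, whose genes were listed apart. Of 40 measured members 9 fell (2.13% of all probe sets) and 1 rose (Sesn2) with AFB, and 2 fell (Atf5 and Nupr1) and 1 rose (Sesn2) with NNK (1.65% fell), with medians of -0.35 and -0.15. Psat1 and Phgdh stand in both lists. Without D number 3, 14 fell with AFB (6.67% of all probe sets fell in that fit) and 5 with NNK (3.73%). Promoter windows are shown for Nupr1, which fell with both compounds, and Aars1, which fell with AFB, because both hold the C/EBP-ATF response motif TTNCATCA, in capitals (RefSeq, GRCr8, as above).
Nupr1 (chr1:190645852-190646151, minus strand): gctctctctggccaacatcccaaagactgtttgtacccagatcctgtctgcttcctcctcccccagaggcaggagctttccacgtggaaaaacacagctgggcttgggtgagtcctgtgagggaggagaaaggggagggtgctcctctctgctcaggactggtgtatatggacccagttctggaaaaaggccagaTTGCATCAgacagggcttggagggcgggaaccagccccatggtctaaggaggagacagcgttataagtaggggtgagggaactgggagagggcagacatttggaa
Aars1 (chr19:55908232-55908531, plus strand): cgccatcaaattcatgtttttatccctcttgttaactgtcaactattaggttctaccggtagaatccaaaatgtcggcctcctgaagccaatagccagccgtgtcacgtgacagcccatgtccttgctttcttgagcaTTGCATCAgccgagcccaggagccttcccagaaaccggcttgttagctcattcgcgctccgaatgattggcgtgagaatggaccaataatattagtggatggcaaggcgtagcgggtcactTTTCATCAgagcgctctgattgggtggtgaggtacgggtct

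The motif, searched on both strands, stood in 7 of 36 windows of this list (19.4%), 11 of 169 windows of genes that fell with AFB alone (6.51%), 1 of 58 of shared falls (1.72%) and 169 of 8565 of all measured genes (1.97%). Among the called falls of this list, Nupr1, Aars1 and Slc7a1 held it, and Phgdh, Psat1, Asns, Atf5, Vldlr and Slc7a11 did not. Herpud1, Trib3, Chac1 and Fgf21 held it too and were called with neither compound. Nupr1, a small stress-induced nuclear protein, measured 1132, 562 and 1598 in AFB_72h against 3558, 3530 and 2732 in its controls, and 815, 996 and 1846 in NNK_72h against 2947, 2913 and 2827 in its controls. Every treated array lay below every control of its set. The effects were -1.69 ± 0.33 and -1.34 ± 0.33, a difference of -0.35 (-1.30 to 0.59).

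Aars1, alanyl-tRNA synthetase, measured 599, 553 and 684 in AFB_72h against 918, 950 and 1155 in its controls, and 1031, 719 and 911 in NNK_72h against 884, 946 and 949 in its controls. AFB arrays lay below their controls and NNK arrays overlapped theirs. The difference was -0.64 (-1.06 to -0.22, adjusted p 0.614). Asns, asparagine synthetase, had -1.07 ± 0.22 with AFB and -0.21 ± 0.22 with NNK, a difference of -0.85 (-1.47 to -0.23, adjusted p 0.705).

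Part of the genes of fatty acid synthesis fell with both compounds. Of 23 measured 5 fell with each (2.13% of all probe sets with AFB and 1.65% with NNK) and 4 with both (0.576%; Acly, Acss2, Scd and Thrsp), with medians of -0.48 with AFB and -0.60 with NNK, and 0 rose. In the fit without D number 3, 8 fell with each (6.67% and 3.73% of all probe sets). Other Thrsp probe sets were called with AFB alone in the fit of all arrays (-2.13 and -2.53 with AFB, -1.97 and -2.24 with NNK). Scd, the desaturase that makes oleate, measured 3934, 724 and 3115 in AFB_72h against 5406, 5728 and 3570 in its controls, and 589, 1231 and 2111 in NNK_72h against 3586, 3717 and 3589 in its controls. The AFB arrays spread widely, and only replicate 2, the array of the low hepatocyte marker sum, lay far below the controls. Its effects were -1.21 ± 0.32 with AFB and -1.66 ± 0.32 with NNK (difference 0.44, -0.47 to 1.35), and those of Acss2, acetyl-CoA synthetase, -1.22 ± 0.30 and -1.41 ± 0.30 (difference 0.19, -0.66 to 1.04). Of 20 genes of cholesterol synthesis all lay below control with both compounds (8841 of 18048 probe sets did with AFB and 9354 with NNK), and 3 fell with AFB, 5 with NNK and 1, Dhcr7, with both. The counts without D number 3 were 6 falls with AFB and 7 with NNK, again beside 6.67% and 3.73%. Hsd17b7 and Idi1 were among those called with NNK only. A second Hsd17b7 probe set was called with both (-0.84 with AFB and -0.81 with NNK), and a second Idi1 probe set with neither.

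Enzymes that activate and detoxify the compounds were listed together. Of 23 measured genes of aflatoxin and nitrosamine metabolism 2 rose and 1 fell with AFB (4.91% of all probe sets were called), and 1 rose and 1 fell with NNK (3.32%). Leaving out D number 3, 3 rose and 3 fell with AFB (12.8% called) and 3 rose and 1 fell with NNK (7.37%). Cyp2e1, a P450 that activates nitrosamines, measured 191, 546 and 212 in AFB_72h against 13.2, 31.4 and 117 in its controls, and 169, 29.4 and 78.0 in NNK_72h against 23.7, 14.4 and 19.9 in its controls. Treated arrays lay above their own controls in both sets, and replicate 3 of the AFB controls was far brighter than the others. The effects were 2.94 ± 0.85 with AFB and 1.94 ± 0.85 with NNK (adjusted p 0.0279 and 0.229), and the difference of 1.00 had an interval of -1.41 to 3.41. Akr1c1, an aldo-keto reductase, had an AFB effect of -0.21 ± 0.59 and fell with NNK (-2.07 ± 0.59), with a difference of 1.86 (0.18 to 3.55, adjusted p 0.833). Of 39 measured PPARα targets 0 were called by limma with either compound, where 4.91% of all probe sets were called with AFB and 3.32% with NNK. An unadjusted p under 0.05 was seen for 5 with AFB and 5 with NNK (2950 and 2809 of 18048 probe sets), and for 0 differences (5.76% of all probe sets). Without D number 3, 3 rose and 1 fell with AFB (6.18% and 6.67% of all probe sets) and 2 rose with NNK (3.65%).

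**Figure D4:**
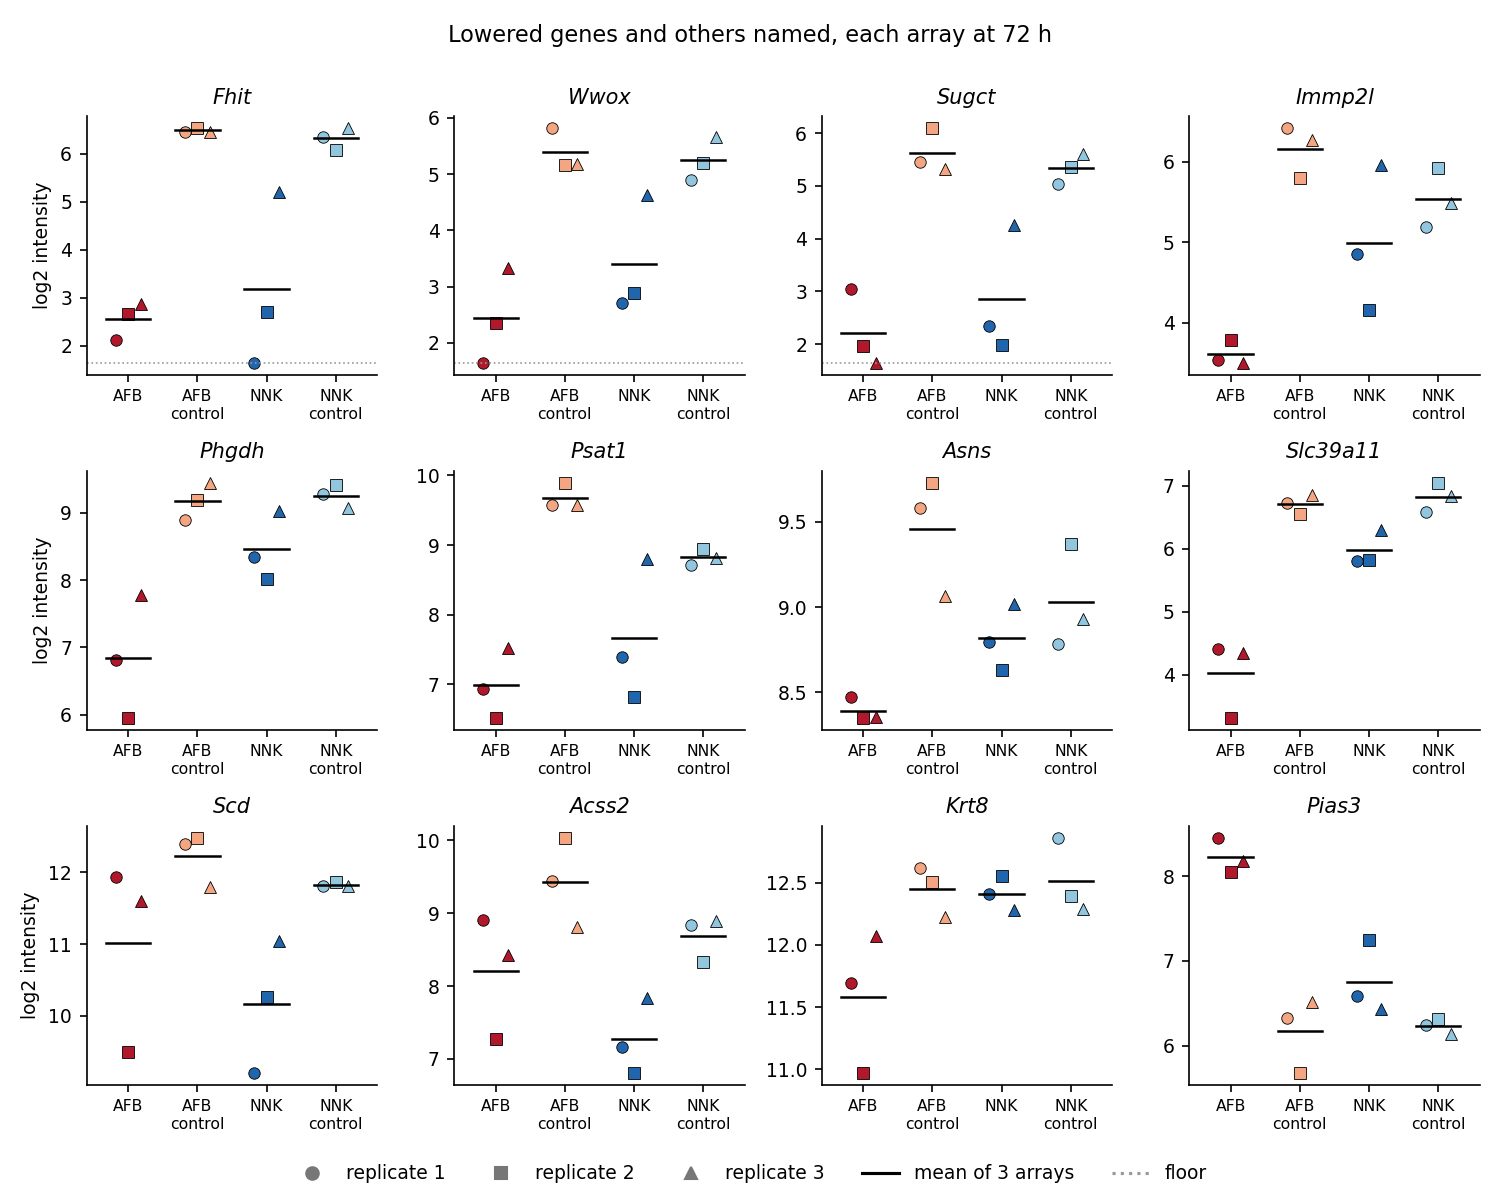
Log2 intensity of 12 genes that fell, or whose effect differed most by value, 1 point per array (marker shape for the replicate), bars for the mean of 3 arrays and a dotted line at the floor, with each compound left of its controls. Replicate 3 is the highest NNK array in Fhit, Wwox, Sugct, Phgdh, Psat1 and Scd, while AFB arrays of Immp2l, Phgdh, Slc39a11 and Pias3 lie apart from all other arrays shown.

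Without the D number 3 arrays of the AFB set, which leaves 2 AFB arrays and 2 controls, 51 differences of effects were called (0.283% of 18048), 23 with the higher effect in AFB and 28 with the lower. The 51 rest on the same NNK arrays and on 2 of the 3 AFB and control arrays of the fit of all arrays. AFB_72h replicate 2, with the low hepatocyte marker sum (53720) and an actin ratio of 2.01, is among those kept. In the fit of all arrays the AFB calls of Krt8, Myc, Cmas and Slc22a23 were lost without that replicate. Those of Slc39a11, Pias3, Macrod1 and Phgdh were kept. In that fit, which called 12.8% of probe sets with AFB and 7.37% with NNK, AFB alone changed 38 of them, NNK alone 7 and both 6, and in 33 the AFB and NNK effects had opposite signs. With array weights in place of leaving arrays out 25 of the 51 were also called. The genes below were named from these calls after their values were seen.

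Slc39a11, a zinc transporter, measured 21.2, 9.97 and 20.4 in AFB_72h against 106, 93.3 and 116 in its controls, and 56.2, 56.8 and 78.4 in NNK_72h against 95.9, 132 and 114 in its controls. Both treated groups lay below their controls without overlap, and AFB arrays lay below NNK arrays. Its effects were -2.69 ± 0.25 with AFB and -0.84 ± 0.25 with NNK, a difference of -1.84 (-2.55 to -1.13, adjusted p 0.0605), and of -1.93 without D number 3 (adjusted p 0.00932). With the replicate block in the fit of all groups it passed the test (adjusted p 0.00703). At 24 h, where 3 differences were called (0.0166%), its difference of -1.86 was one of them (limma adjusted p 0.0242).

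Pias3, a SUMO ligase that inhibits STAT3, measured 350, 264 and 289 in AFB_72h against 80.0, 51.2 and 91.6 in its controls, and 96.2, 152 and 86.3 in NNK_72h against 76.0, 79.8 and 70.5 in its controls. AFB arrays lay well above all others. Its effects were 2.05 ± 0.24 with AFB and 0.52 ± 0.24 with NNK, a difference of 1.53 (0.85 to 2.21, adjusted p 0.173), and of 1.73 without D number 3 (adjusted p 0.0193), and it passed with the replicate block (adjusted p 0.00662). The AFB arrays bear out the replicate numbers as a pairing only in part (correlations 0.63, -0.29 and 0.55 for replicates 1, 2 and 3). At 24 h the difference was 0.49 (adjusted p 0.885).

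Slc22a23, an orphan organic ion transporter, rose with AFB (0.80 ± 0.22) and had -0.58 ± 0.22 with NNK, a difference of 1.38 (adjusted p 0.173) and of 1.52 without D number 3 (adjusted p 0.00175). A second Slc22a23 probe set gave -0.44 with AFB and -0.70 with NNK and thus no such contrast. Cmas, which activates sialic acid, fell with AFB (-0.48 ± 0.10) and had 0.15 ± 0.10 with NNK, a difference of -0.63 (adjusted p 0.197) and of -0.85 without D number 3 (adjusted p 0.00596). Myc, a growth-promoting transcription factor, fell with AFB (-1.43 ± 0.34) and had -0.43 ± 0.34 with NNK, a difference of -1.0 (adjusted p 0.845) and of -1.37 without D number 3 (adjusted p 0.0419).

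Keratins of the hepatocyte cytoskeleton were lowered by AFB. Krt8 measured 3312, 2004 and 4305 in AFB_72h against 6282, 5829 and 4789 in its controls, and 5432, 6013 and 4973 in NNK_72h against 7451, 5377 and 5010 in its controls. All AFB arrays lay below their controls, and NNK arrays overlapped theirs. Its effects were -0.87 ± 0.17 with AFB and -0.10 ± 0.17 with NNK, a difference of -0.77 (-1.26 to -0.28, adjusted p 0.537), and of -1.13 without D number 3 (adjusted p 0.0308). Its partner Krt18 had effects of -0.74 ± 0.18 with AFB and -0.09 ± 0.18 with NNK. Of 29 measured cytoskeleton genes 4 fell with AFB (2.13% of all probe sets did), the other 2 being Vim and Tubb2a. The list as a whole did not fall, with 16 members above and 13 below control with AFB and a median effect of 0.03. With NNK 0 of the 29 were called by limma (3.32% of all probe sets), with 2 at an unadjusted p under 0.05.

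The class II histocompatibility gene RT1-Da measured 21.6, 105 and 255 in AFB_72h against 9.56, 7.65 and 83.8 in its controls, and 18.7, 64.3 and 30.8 in NNK_72h against 52.0, 159 and 66.2 in its controls. Each AFB array lay above, and each NNK array below, the control of the same replicate number. In both sets the ranges of treated and control arrays overlapped. RT1-Da was called with neither compound in the fit of all arrays. Its difference was 3.48 (0.51 to 6.45, adjusted p 0.809), and 3.77 without D number 3 (adjusted p 0.0374). The summed macrophage markers, given above, were higher in AFB arrays than in their controls, and NNK arrays overlapped theirs. A link between these sums and RT1-Da was not tested.

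**Figure D5:**
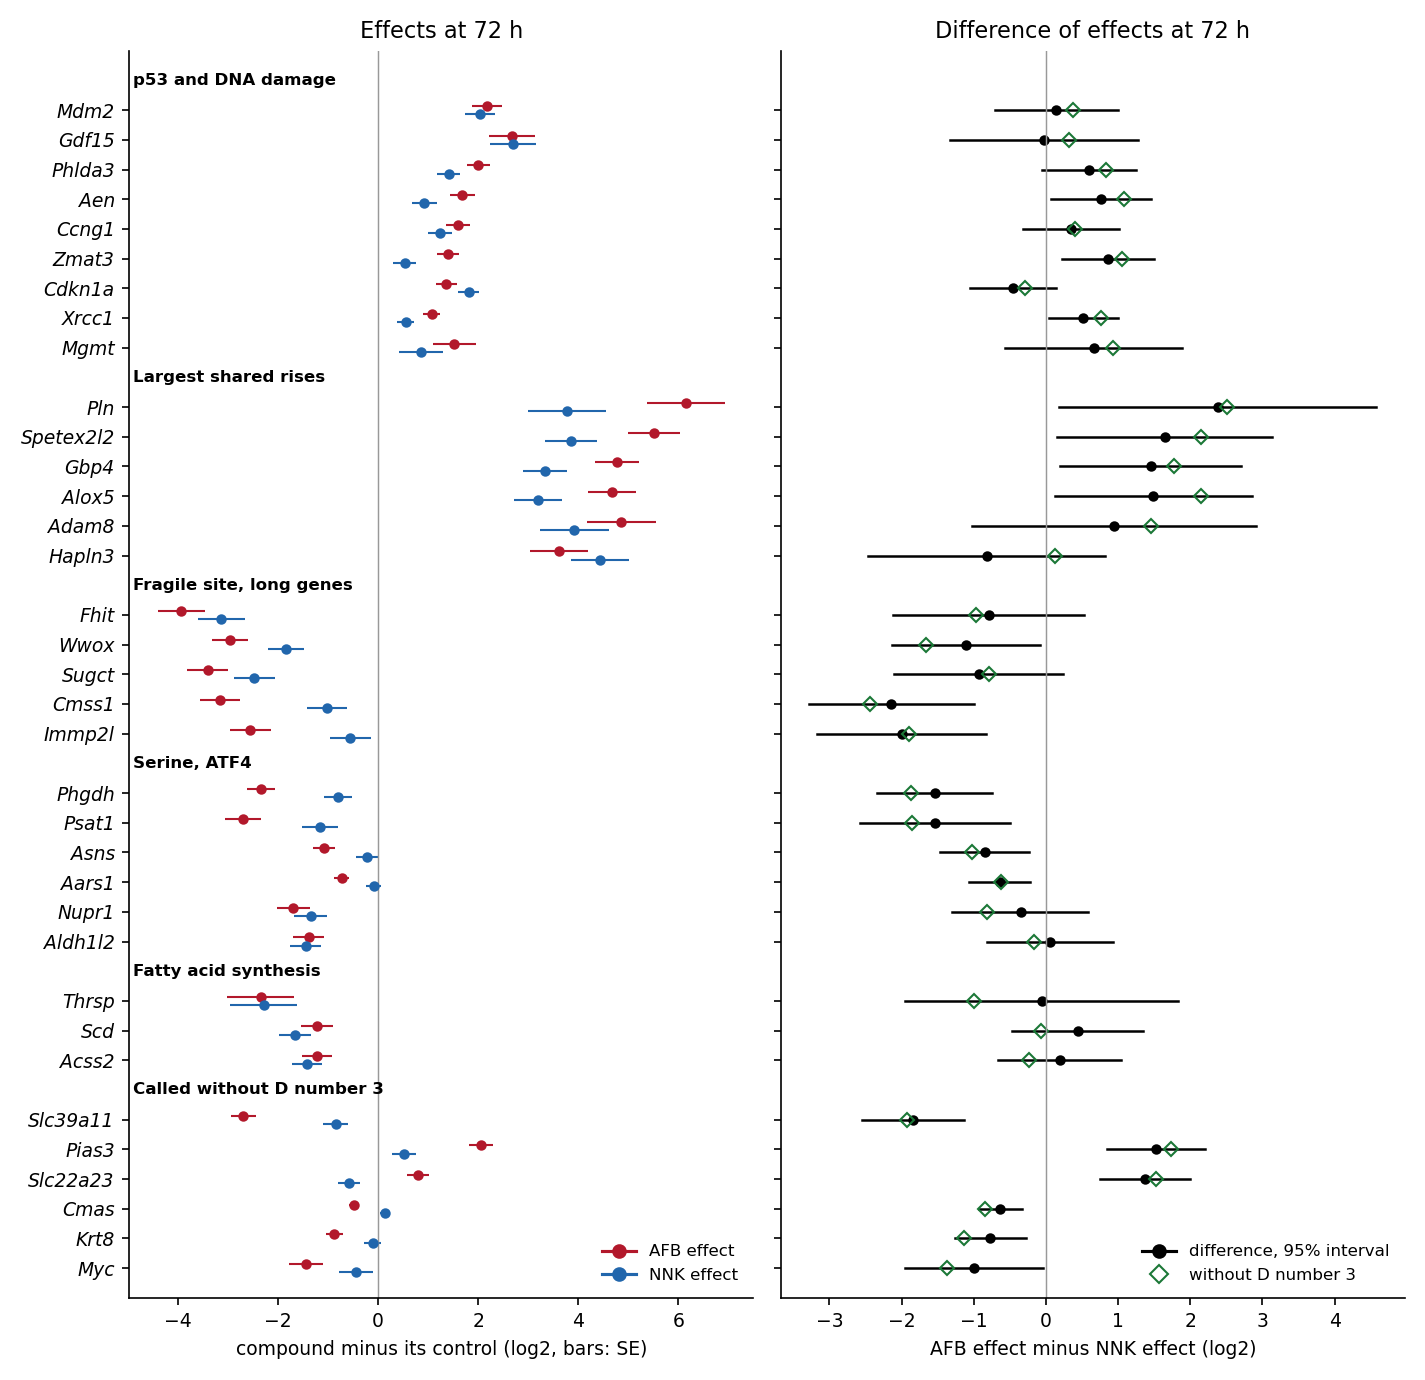
Left, effects of AFB and of NNK at 72 h (log2, points with SE); right, the difference of effects (log2, points with 95% interval) and the same without the D number 3 arrays (open diamonds), for genes named in the text. Intervals of Mdm2, Gdf15, Ccng1, Aldh1l2 and Acss2 contain 0, and those of Phgdh, Psat1, Cmss1, Immp2l, Slc39a11 and Pias3 lie to one side of it. None passed the adjusted threshold over 18048 probe sets in the fit of all arrays without the replicate block. Of the genes whose interval is said here to lie to one side, Phgdh, Slc39a11 and Pias3 passed it without D number 3.

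The controls of the 2 compounds differed from each other. Between C(WYE_CND_AFB)_72h and C(NNK)_72h 2738 probe sets were called (15.2%), 1218 higher (6.75%) and 1520 lower (8.42%) in the controls of AFB. Among the 170 shared rises 26 had such a control difference (15.3%), and among the 104 shared falls 12 (11.5%). Set of experiments and compound cannot be told apart in the difference of effects beyond what each control removes.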

How the data were processed

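RNA of rat hepatocytes was measured on 72 Affymetrix arrays (24 groups of 3), 12 of them used here. The deposited table holds linear intensity values for 31099 probe sets, made by the authors with MAS5 per the submitters' processing notes. The MAS5 version is not given in the sources used here. Trimmed of 2% at each end, the values of every array average 99.99. Groups came from the titles.

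Intensities under 3.117, the table's 20th percentile, were set to it, and log2 was taken, so changes of dim genes are understated. The 57 control probe sets were left out. The filter kept 18048 probe sets (58.1%) with at least 1 group mean at or above the table median of 19.74. Among probe sets that are not controls, the platform annotation gives 1 symbol for 20826, several for 436 and none for 9780. The kept probe set of highest mean stood for its gene (10178 genes).

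The tests used limma 3.58.1 in R 4.3.3 (group means of all 72 arrays, 48 residual degrees of freedom, eBayes with an intensity trend, Benjamini-Hochberg adjustment over 18048). All groups share 1 spread per probe set, while the AFB arrays vary more than the NNK arrays. The method was tested on simulated data in which all groups had the same spread. That test therefore does not cover the unequal spread of the AFB and NNK arrays. Alternatives in floor, filter, normalization, array weights, block, RNA quality and arrays left out are given in the closing section. Arrays of NNK_72h and its controls with the same replicate number, as the titles give it, deviated together (correlations 0.32, 0.49 and 0.33), and those of AFB_72h did not all (0.63, -0.29 and 0.55). The p-values measure the spread between these samples, which may be technical, as no label names separate animals.

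Named were the 10 shared rises and 10 shared falls with the largest smaller effect of the 2 compounds (brightest group mean at or above the table median), fixed list genes, and others named after their values were seen. Members and lists were chosen with earlier results of these data known. Promoter windows came from RefSeq (GRCr8), which held 8565 of the 10178 genes.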

Additional observations from a re-analysis of the deposited data

How the results depend on the processing

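The count of called differences of effects at 72 h was 0, and it stayed at 0 with a lower floor, with an offset of 16 in place of a floor, with quantile normalization, without an intensity trend, with the 12 arrays alone and with those 12 and the replicate block (the last added after the data were seen). It was 3 without the filter on dim probe sets (3 of one compound, and 5 differences at 24 h against 3) and 1 with the stricter filter. With array weights it was 190 (170 of one compound, 157 at 24 h, 2986 AFB calls, 2790 NNK calls, 895 shared). With the actin ratio as a covariate it was 83 (74 of one compound, 9 at 24 h, 1293 NNK calls), and leaving out arrays of high actin ratio gave 55, with 1 AFB array left, whose spread is taken from the other groups (50 of one compound, 7 at 24 h, 400 AFB calls, 1930 NNK calls). Without the D number 3 arrays it was 51 (45 of one compound, 2318 AFB calls, 1331 NNK calls, 549 shared). The offset and the quantile normalization left 0 differences at 24 h. With the 12 arrays alone AFB had 213 calls, NNK 36 and both 27, with 0 differences at 24 h, and with the block on those arrays 302, 88 and 54. The cause of these changes was not tested.

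With the replicate block in the fit of all groups, 2 differences were called (1 of one compound, 18 at 24 h), with 1534 AFB calls, 1296 NNK calls and 502 shared. In the AFB set not every array correlated best with its own number.

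Leaving out 1 array gave 276 to 1606 AFB calls, 220 to 593 NNK calls, 134 to 366 shared probe sets, 0 to 13 differences and 0 to 11 of one compound. AFB calls were 1606 without AFB_72h replicate 1, 276 without its replicate 2 and 419 without C(WYE_CND_AFB)_72h replicate 2, and the 13 differences came without AFB_72h replicate 3. NNK calls were 242 without NNK_72h replicate 1 or 2 and 220 without C(NNK)_72h replicate 3, and shared probe sets were 164 without AFB_72h replicate 2, 134 and 149 without NNK_72h replicate 1 or 2 and 143 without C(NNK)_72h replicate 3.

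For some genes the difference changed sign. They were -0.11 for Cd209f and -0.48 for Cyp17a1 with the lower floor, -0.12 for Inka2, 0.22 for Gdf15 and -0.01 for Aldh1l2 with the offset, 0.00 for Thrsp with quantile normalization, -1.03 for Cd209f, -0.20 for Mdm2 and -0.36 for Acss2 with array weights, 0.05 for Thrsp with the actin covariate, and -0.45 for Cyp17a1 and 1.30 for Thrsp without high-actin arrays. Without D number 3 they were 0.13 for Hapln3, -0.59 for Cd209f, -0.45 for Cyp17a1, 0.32 for Gdf15, -0.07 for Scd, -0.23 for Acss2 and -0.17 for Aldh1l2. The AFB effect of Akr1c1 was 0.09 with the actin covariate. With 1 array left out the differences ranged over -0.68 to 0.77 (Cd209f), -0.15 to 0.59 (Mdm2), -0.04 to 1.2 (Scd), -0.16 to 0.65 (Acss2), -0.29 to 0.55 (Aldh1l2), -0.34 to 0.76 (Inka2), -0.92 to 1.37 (Thrsp), -1.57 to 0.37 (Car5a), -0.69 to 0.07 (Nupr1), -1.46 to 0.01 (Hapln3), -0.76 to 0.69 (Cyp17a1), -0.46 to 0.44 (Gdf15) and -1.56 to 0.22 (Fhit). So did the AFB effect of Akr1c1 (-0.75 to 0.35) and the NNK effects of Aars1 (-0.19 to 0.07), Krt18 (-0.19 to 0.11) and Krt8 (-0.21 to 0.07). Signal near the floor limits the precision of dim genes.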
